A study of Mus musculus with 18 samples.

Results

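The genes described here are 9 receptors and adhesion molecules that are best known from natural killer (NK) cells and from intraepithelial lymphocytes: Cd160, Crtam, Cd7, Amica1 (the older symbol of Jaml) and the killer lectin-like receptors Klrd1, Klrk1, Klrc1, Klre1 and Klrb1c. They were taken by gene symbol from the 38392 genes of the deposited mouse RNA-seq table, and each was found on 1 row. All 9 passed the filter on low values (at least 10 normalised counts in at least 3 libraries), which kept 15472 genes. The rows were picked by gene symbol and not by a measured value. The genes themselves were chosen with earlier results of these data known, so counts of the 9 set beside all genes are descriptions.

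CD4+ CD8α- Foxp3-GFP- T cells were moved from C57BL/6 TNa TNb RAG1-/- Foxp3GFP donors into C57BL/6 TCRa-/- TCRb-/- hosts, and the transferred cells were recovered from the small intestine after 6 weeks. The donors carry the T cell receptor of a peripherally induced regulatory T cell as their own receptor genes and cannot rearrange others, so every group shares that receptor, the RAG1 deficiency and the Foxp3 reporter. The hosts lack αβ T cells but still have γδ T cells, B cells and NK cells. In the intraepithelial compartment (IEL) and in the lamina propria (LP), 3 phenotypes were sorted: cells that had stayed CD4+ CD8α- Foxp3- (SP), CD4+CD8α+ cells (DP) and CD4+ Foxp3+ cells (TR). The 6 groups are IEL SP, IEL DP, IEL TR, LP SP, LP DP and LP TR, with 3 libraries each. The labels call them biological replicates but do not say which animals they came from, so every p-value here measures the spread between these libraries. Ages of the animals are not given in the sources used here. For 1 gene, permuting 3 libraries and 3 libraries cannot give an exact two-sided p below 0.1, so the tests below come from a model fitted across all genes.

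NK-type receptors let a lymphocyte read stress and self molecules on neighbouring cells. Klrd1 (CD94) forms heterodimers with Klrc1 (the inhibitory chain NKG2A) or with the activating Klrc2 chain and binds the non-classical MHC molecule Qa-1. Klrk1 (NKG2D) binds stress-induced ligands of the Raet1, H60 and Ulbp1 families and signals through the adaptor Hcst. In the gut epithelium, T cells that lie between the epithelial cells carry many such receptors, together with molecules that bind epithelial surfaces: Amica1 binds the junction protein Cxadr, Cd160 binds Tnfrsf14 and non-classical MHC molecules, Crtam binds Cadm1, and Cd7 is an immunoglobulin-family molecule of T and NK cells.

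The genes lie on 4 chromosomes, with positions given here on GRCm38 from the GENCODE M21 annotation. Amica1 (ENSMUSG00000048534) is at chr9:45079183-45108534 on the plus strand, and Crtam (ENSMUSG00000032021) is at chr9:40969691-41004628 on the minus strand. Cd160 (ENSMUSG00000038304) is at chr3:96798763-96829351 on the minus strand and Cd7 (ENSMUSG00000025163) at chr11:121036747-121039418 on the minus strand. The 5 killer lectin-like receptor genes sit on chromosome 6 in the NK gene complex. Klre1 (ENSMUSG00000050241, chr6:129577905-129585827, plus), Klrd1 (ENSMUSG00000030165, chr6:129591782-129598775, plus), Klrk1 (ENSMUSG00000030149, chr6:129610323-129623864, minus) and Klrc1 (ENSMUSG00000030167, chr6:129666015-129678973, minus) lie close together, with Klrc2 between Klrk1 and Klrc1, and Klrb1c (ENSMUSG00000030325, chr6:128778485-128789215, minus) lies outside that stretch.

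RefSeq (GRCm38.p6) gave the 250 bases before the start site for 6 of the 9 genes, with 8 start sites in all. Crtam, Cd7 and Klrd1 had no entry. Those of Amica1 and of Cd160 are shown because both genes fell in the Foxp3+ cells at both sites. Capitals mark matches to the Runx core TGNGGT or the T-box core GGTGTGA on either strand, and the sequences are written on the strand of the gene. The windows are chr9:45078933-45079182 for Amica1, chr3:96829352-96829601 for the first start site of Cd160 and chr3:96814522-96814771 for its second start site.
Amica1: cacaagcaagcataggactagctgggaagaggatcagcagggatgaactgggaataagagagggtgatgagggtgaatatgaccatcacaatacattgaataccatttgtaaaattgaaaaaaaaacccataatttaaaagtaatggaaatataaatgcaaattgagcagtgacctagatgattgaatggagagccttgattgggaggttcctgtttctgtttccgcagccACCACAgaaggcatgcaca
Cd160 start site 1: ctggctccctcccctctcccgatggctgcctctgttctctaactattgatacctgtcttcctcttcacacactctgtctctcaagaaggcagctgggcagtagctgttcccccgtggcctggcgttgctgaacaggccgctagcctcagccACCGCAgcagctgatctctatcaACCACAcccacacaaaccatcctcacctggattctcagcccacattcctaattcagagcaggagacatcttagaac
Cd160 start site 2: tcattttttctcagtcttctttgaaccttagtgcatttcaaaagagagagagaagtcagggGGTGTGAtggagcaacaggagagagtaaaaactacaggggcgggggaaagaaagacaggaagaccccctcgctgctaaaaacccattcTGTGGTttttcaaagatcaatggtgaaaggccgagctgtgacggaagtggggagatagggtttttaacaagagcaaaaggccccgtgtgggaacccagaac
The 8 windows were searched on both strands for 5 motifs, which besides these 2 were the ETS core AGGAAG, the E-box CACCTG and the TCF/LEF core CTTTGA. The Amica1 window held a single Runx match, 19 to 14 bases before the start. The first Cd160 window held 2 Runx matches, and the second held a Runx match together with the only T-box match among the 8 windows. A Runx match was present in 7 of the 8 windows of the set, against 40.1% of the 32851 mouse windows of this length, and a T-box match in 1 of 8, against 3.33%. An ETS match was present in 4 of 8 windows, against 29.5%, an E-box match in 1 of 8, against 17.2%, and a TCF/LEF match in 1 of 8, against 13.8%. The 8 windows belong to Amica1, Cd160, Klrk1, Klrc1, Klre1 and Klrb1c, of which only Amica1 and Cd160 were called in limma in TR against SP. They include overlapping ones of Klre1, and a match is a run of letters, not a measured binding site.

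Klrc1 and its neighbour Klrc2 are so alike that short reads can be hard to place. Their coding sequences were identical at 593 of 714 aligned bases (83.1%), with a longest identical stretch of 100 bases. Shown first are the 60 coding bases within an exon with the most differences, 24 in all, with the differing bases in capitals (Klrc1 chr6:129678302-129678361, Klrc2 chr6:129659984-129660043, both minus strand). After them come the first 60 bases of the longest identical stretch, which both genes share (Klrc1 chr6:129674902-129674961, Klrc2 chr6:129656414-129656473, both minus strand).
Klrc1: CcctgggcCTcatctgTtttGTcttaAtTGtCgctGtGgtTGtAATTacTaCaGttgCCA
Klrc2: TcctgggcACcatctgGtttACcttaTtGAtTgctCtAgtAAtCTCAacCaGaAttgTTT
Klrc1 and Klrc2: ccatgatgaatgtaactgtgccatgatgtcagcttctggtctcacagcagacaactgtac
Of all 50-base words in the Klrc1 transcripts, 38.6% also occurred in transcripts of another gene, 36.6% in those of Klrc2. The share was 17% for Klrb1c, mostly with the overlapping model Gm44511 and otherwise with Klrb1a and Klrb1b. It was 13.1% for Amica1 (the overlapping lincRNA Gm10684), 8.04% for Cd7 (the antisense model Gm11775) and 0.72% for Cd160 (Pdzk1), and 0.0% for Crtam, Klrd1, Klrk1 and Klre1. The library kit does not mark strand, so reads over an antisense neighbour cannot be told apart. The highest normalised count in any library was 20.3 for Gm10684, 6.41 for Gm11775 and 28.86 for Pdzk1. Gm44511 overlaps Klrb1c on the same strand and has no row in the deposited table, so no read was counted for it there. The values of Klrc1 are therefore uncertain where reads could be split with a near copy. The same holds for Klrb1c over the words that it shares with Klrb1a and Klrb1b.

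The libraries held between 5093955 and 8851347 reads in genes (median 5903164.5), and the values used are the authors' normalised counts. T cell markers summed to between 23980 and 33750 normalised counts in every library. The sorted genes followed the labels: Cd8a was at 3364 to 6444 in the DP libraries and at 3.15 to 113.2 in all others, and Foxp3 was at 66.19 to 163.6 in the TR libraries and at 0 to 39.88 elsewhere, the highest of these being an IEL SP library. Foxp3 passed in LP TR against SP (limma adjusted p = 0.00126) and was at 0.284 in IEL. The 3 IEL TR libraries varied more among themselves than those of other groups and entered the fit with a weight of 0.3524, against 1.049 to 1.346 elsewhere. On simulated data this fit made more false calls in comparisons with IEL TR than in the others, so its p-values there are too small. Those comparisons were therefore also tested with only the groups compared, for the 9 genes and, in an analysis added after the data were seen, for the called genes of the lists further on. On simulated data that fit made no false call in these comparisons but found no true difference. It thus made no call there, so the simulated data do not show how far a call that it keeps can be trusted. A call that it loses says little. On the real libraries it called 450 genes in IEL TR against IEL SP and 640 in IEL DP against IEL TR.

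Amica1 was high in all SP and DP libraries and near the bottom of the scale in all TR libraries. In IEL SP its normalised counts were 4641, 4489 and 5124 in libraries 1 to 3, and in IEL DP 5259, 5076 and 3803. In LP SP they were 1903, 1459 and 1458, and in LP DP 3308, 4292 and 3522. In IEL TR they were 8.40, 28.19 and 10.46, and in LP TR 19.47, 17.41 and 47.48. The TR libraries did not overlap with the SP or DP libraries, as 11.7% (IEL) and 11.9% (LP) of all genes had every TR library below every SP library, and the lamina propria SP libraries were the lowest of the CD4+ cells without Foxp3. Amica1 (Jaml) is an adhesion receptor through which intraepithelial T cells contact epithelial junctions. Its log2 change, on the log2(normalised count + 1) scale, was -8.34 ± 0.44 in IEL TR against IEL SP (SE, n = 3 per group, limma adjusted p = 4.02e-08, and 0.00152 with only these groups). In LP TR against LP SP the log2 change was -5.92 ± 0.31 (limma adjusted p = 2.78e-08).

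Cd160 also separated the TR libraries from all others. Its normalised counts were 3331, 3600 and 3333 in IEL SP and 3827, 3867 and 3582 in IEL DP. They were 1754, 1735 and 1288 in LP SP and 2830, 2920 and 2668 in LP DP. In the Foxp3+ cells they were 605.1, 140.9 and 86.27 in IEL TR and 134.1, 105.7 and 99.83 in LP TR. Library 1 of IEL TR stood above the other 2 of its group, and all 6 TR libraries were below every SP and DP library. Cd160 is a glycosylphosphatidylinositol-anchored receptor of NK cells and intraepithelial lymphocytes. The log2 change was -4.13 ± 0.38 in IEL TR against IEL SP (limma adjusted p = 1.02e-05, and 0.0417 with only these groups) and -3.80 ± 0.27 in LP TR against LP SP (limma adjusted p = 4.63e-07). Without library 1 of IEL TR the first of these was -4.94 (limma adjusted p = 2.91e-09).

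Cd7 kept a measurable level in every library. It was at 1383, 1303 and 853.5 normalised counts in IEL SP and at 1752, 2189 and 2327 in IEL DP. It was at 414.8, 677.0 and 311.8 in LP SP and at 1616, 1204 and 1196 in LP DP. The TR libraries had 93.50, 206.9 and 70.58 in IEL and 18.39, 72.13 and 38.96 in LP. Within each compartment the 3 phenotypes did not overlap, with DP highest and TR lowest. The log2 change from SP to TR was -3.37 ± 0.57 in IEL (limma adjusted p = 0.00277, and 0.0212 with only these groups) and -3.53 ± 0.40 in LP (limma adjusted p = 4.78e-05).

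Crtam, an adhesion receptor of activated cytotoxic cells that binds Cadm1, was low in all groups and close to 0 in the Foxp3+ cells. In IEL SP it was at 142.2, 104.3 and 134.9 normalised counts and in IEL DP at 149.6, 155.6 and 181.4. In LP SP it was at 21.09, 8.21 and 45.20 and in LP DP at 130.9, 101.9 and 204.4. The 6 TR libraries held 0 to 1.24 normalised counts, of which 3 libraries had no read. The LP SP libraries stood below all other SP and DP libraries and above all TR libraries. The log2 change from SP to TR was -6.64 ± 0.69 in IEL (limma adjusted p = 2.78e-05, and 0.00331 with only these groups) and -3.66 ± 0.49 in LP (limma adjusted p = 0.000201). With TR libraries at 0 or 1 read, these fitted values depend on the pseudocount. Without LP SP library 2, the LP value was -4.26 (limma adjusted p = 3.56e-05).

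**Figure D1:**
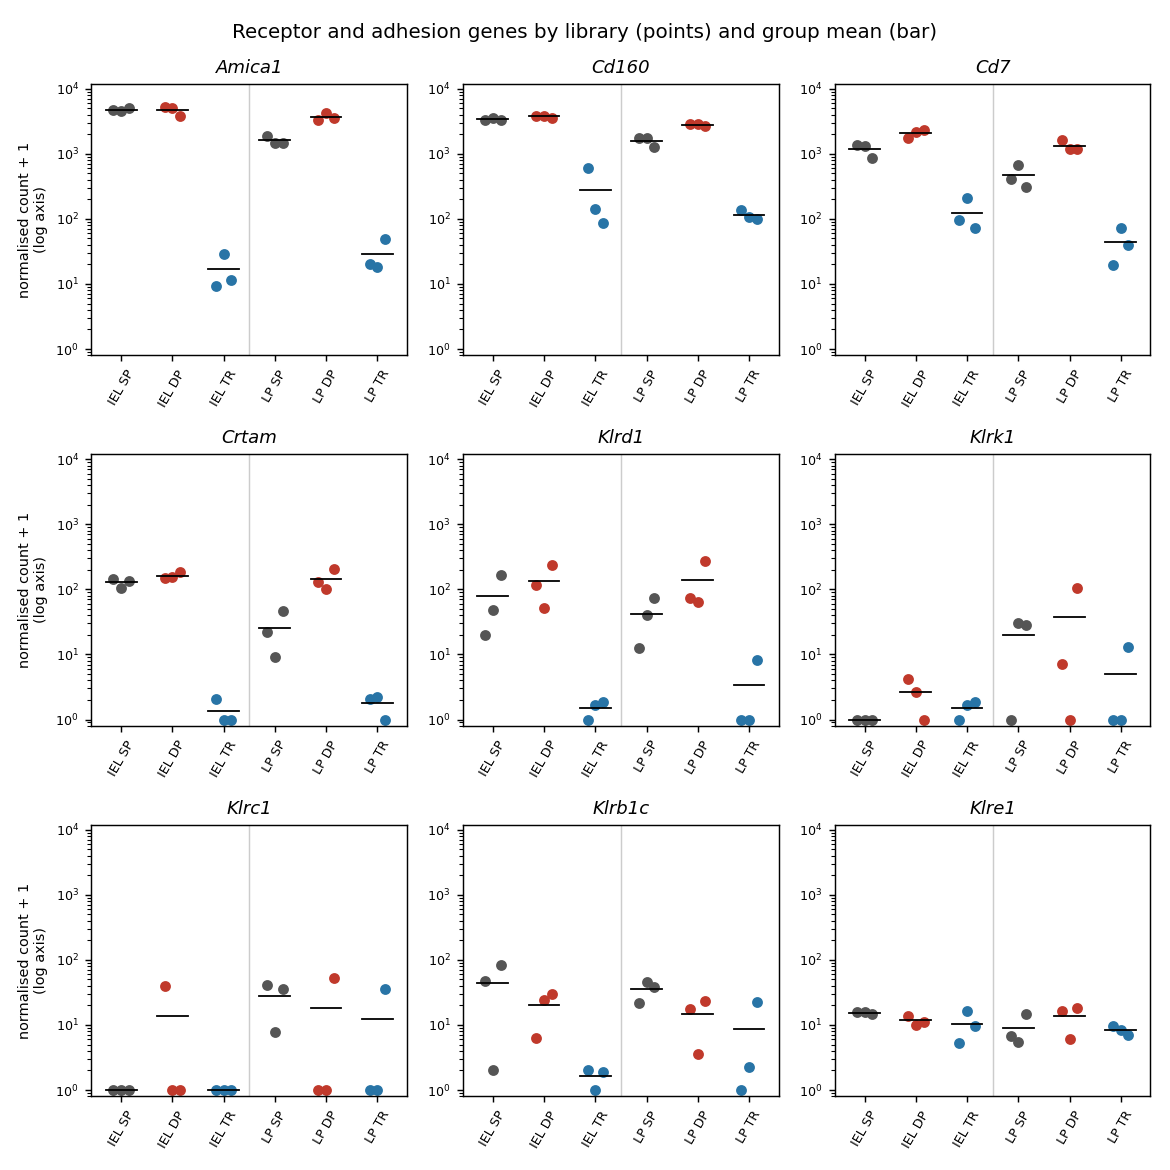
Normalised count + 1 of the 9 genes in each of the 18 libraries, on a log axis, with 1 panel per gene. Points are libraries and bars are group means, grey for SP, red for DP and blue for TR, with IEL on the left and LP on the right of each panel. Amica1, Cd160, Cd7 and Crtam show every TR library below every SP and DP library; Klrk1 and Klrc1 have many libraries at 0.

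Among the 5 killer lectin-like receptors, Klrd1 was the only gene called between phenotypes in limma. It was at 19.03, 46.85 and 168.0 normalised counts in IEL SP, at 117.5, 50.47 and 240.0 in IEL DP, at 11.72, 39.56 and 73.02 in LP SP and at 73.19, 63.71 and 273.1 in LP DP. In the TR libraries it was at 0, 0.69 and 0.87 in IEL and at 0, 0 and 7.30 in LP. SP and DP libraries overlapped widely, with library 3 the highest in each of these 4 groups, and no TR library reached any of them. The log2 change from SP to TR was -5.22 ± 1.41 in IEL (limma adjusted p = 0.0448, and 0.0399 with only these groups) and -4.06 ± 1.00 in LP (limma adjusted p = 0.019, and 0.0700 with only these groups). Both calls depended on single libraries, and leaving them out gave limma adjusted p-values up to 0.215 in IEL (without IEL TR library 2) and 0.113 in LP (without LP SP library 3). The IEL call was also lost without IEL SP library 2 (0.0731), IEL SP library 3 (0.0908) or IEL TR library 3 (0.184). The LP call was lost without LP SP library 2 (0.0590), LP TR library 1 (0.0901) or LP TR library 2 (0.0833). Other single libraries moved the size and kept the call: the log2 change was -5.94 without IEL SP library 1 in IEL, and -4.76 without LP SP library 1 and -5.07 without LP TR library 3 in LP.

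Klrc1, the inhibitory partner chain of Klrd1, was found in few libraries. It had no read in 12 of the 18. It was at 39.84, 6.72 and 34.77 normalised counts in LP SP, and otherwise at 38.47 in IEL DP library 1, at 50.85 in LP DP library 3 and at 34.09 in LP TR library 3. The Klrc1-positive libraries thus included all of LP SP, 1 each of IEL DP, LP DP and LP TR, and none of IEL SP or IEL TR. Against a floor of 3 reads per library, the LP SP mean was at least 9.3-fold higher than IEL SP. Its adjusted p was 0.133 in the limma fit of all groups and 0.02 with only these groups. Klrc2 was read in the same 6 libraries that held Klrc1 (LP SP 32.81, 3.73 and 31.29, IEL DP library 1 12.82, LP DP library 3 34.84 and LP TR library 3 12.17) and otherwise only at 1.7 in IEL SP library 3 and 2.1 in IEL TR library 1. Reads of these genes can be split between them, as the shared sequence above shows.

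Klrk1 was spread just as unevenly over the libraries of a group. It was at 0, 29.11 and 27.82 normalised counts in LP SP, at 6.18, 0 and 104.5 in LP DP and at 0, 0 and 12.17 in LP TR. The 9 IEL libraries held 0 to 3.21. Klrk1 thus exceeded 10 normalised counts in 4 libraries, all from the lamina propria, while at least 1 library of each LP group had no read. The LP SP mean was 6.51-fold the same floor in IEL SP, with a limma adjusted p of 0.232. LP SP library 1 had no read, as in IEL SP, so the libraries of these groups overlapped. Klrb1c, which encodes the NK cell antigen used to define these cells in C57BL/6 mice, was at 46.06, 1.06 and 83.14 in IEL SP, at 21.09, 45.53 and 37.09 in LP SP and at 2.55 to 28.83 over the DP libraries. It was at 0 to 1.05 in IEL TR and at 0, 1.24 and 21.91 in LP TR. The IEL TR libraries lay just below the lowest IEL SP library, and the limma test of that difference gave an adjusted p of 0.345. Klre1, which encodes an NK cell receptor that pairs with Klri chains, was between 4.20 and 16.95 in all 18 libraries and was called in no comparison.

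The libraries with reads of the sparse receptors tended to be the same. LP DP library 3 had a sum of 468.0 normalised counts over the 5 killer lectin-like genes, against 111.3 and 71.36 in the other LP DP libraries. LP TR library 3 had 81.56, against 8.65 and 8.70. Library 3 was also the highest in IEL SP (264.7), IEL DP (279.0) and LP SP (186.6), but not in IEL TR. The part of the replicate number in the correlations that follow was not tested. Over the 18 libraries the Pearson correlation of log2 values was 0.688 between Klrk1 and Klrc1, and 0.599 after removal of the group means. Between Klrd1 and Klrk1 it was 0.394, and 0.651 after removal of the group means. These are descriptions over libraries that share groups, and several values are 0.

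**Figure D2:**
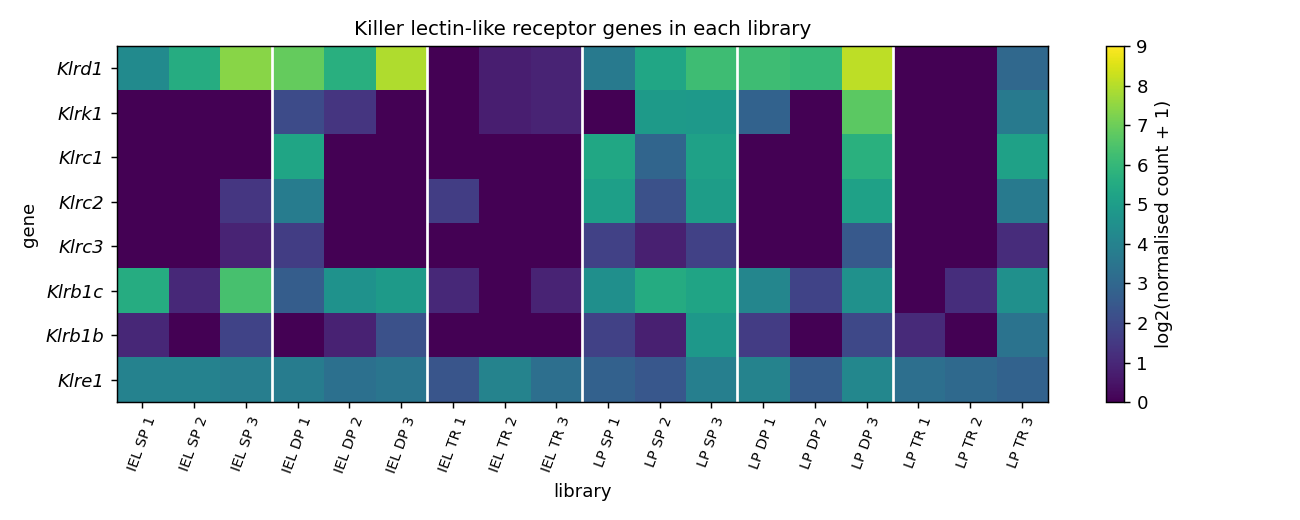
Log2(normalised count + 1) of 8 killer lectin-like receptor genes in each of the 18 libraries, with genes in rows and libraries in columns, the colour scale running from 0 to 9 and white lines between groups. Klrd1 is dark in the IEL TR libraries and coloured in all SP and DP libraries, while Klrk1, Klrc1 and Klrc2 are coloured in single libraries such as LP DP library 3 and LP TR library 3.

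A comparison of levels between genes needs the transcript length, and was made per kilobase of exon. In IEL SP the mean normalised count per kilobase was 1529 for Amica1, 1295 for Cd160 and 1041 for Cd7. It was 60.86 for Klrd1, 24.78 for Crtam, 14.66 for Klrb1c and 4.15 for Klre1, with Klrk1 and Klrc1 at 0. In these cells the set was thus made up of 3 abundant genes, and the killer lectin-like receptors and Crtam were more than an order of magnitude below them. In the sum over all 9 genes, the IEL SP libraries had 9559 to 9710 normalised counts, IEL DP 10170 to 11370, LP DP 7996 to 8589 and LP SP 3289 to 4171. The IEL TR libraries had 178.6 to 713.3 and the LP TR libraries 181.7 to 267.8.

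The order of the group means was IEL DP, IEL SP, LP DP, LP SP, IEL TR and LP TR for Cd160, and its neighbours did not overlap except IEL DP with IEL SP and IEL TR with LP TR. For Amica1 the order was IEL SP, IEL DP, LP DP, LP SP, LP TR and IEL TR. Its neighbours overlapped for IEL SP with IEL DP, IEL DP with LP DP, and the TR groups. For Cd7 it was IEL DP, LP DP, IEL SP, LP SP, IEL TR and LP TR, with overlap between LP DP and IEL SP and between the TR groups. For Crtam it was IEL DP, LP DP, IEL SP, LP SP, LP TR and IEL TR. Neighbours overlapped for IEL DP with LP DP, LP DP with IEL SP, and the TR groups. Klrd1 had the order LP DP, IEL DP, IEL SP, LP SP, LP TR and IEL TR, and only LP SP and LP TR were separated. No neighbours in the order were separated for Klrk1, Klrc1, Klre1 or Klrb1c.

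In the Foxp3+ cells as a group, 5 of the 9 genes fell against SP at each site: Cd160, Crtam, Cd7, Amica1 and Klrd1. None of the 9 rose. Of all genes tested, 4.95% were called in IEL (2.58% lower) and 8.2% in LP (3.63% lower). The median log2 change of the 9 genes was -3.69 in IEL and -3.53 in LP, against -0.05 and -0.01 over all genes tested. The remaining 4 genes were Klrk1, Klrc1, Klre1 and Klrb1c, whose adjusted p-values in limma ranged from 0.345 to 1 in IEL and from 0.195 to 0.992 in LP. In bulk RNA, fewer cells that express a gene and less RNA per cell cannot be told apart.

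Set against the DP cells, the same TR libraries were again low for these 5 genes. In IEL DP against IEL TR, Amica1 was higher by 8.32 on the log2 scale (limma adjusted p = 2.22e-08), Crtam by 7.0 (1.29e-05), Klrd1 by 6.28 (0.0142), Cd160 by 4.26 (5.29e-06) and Cd7 by 4.21 (0.000289). With only these groups, the adjusted p-values of these 5 genes lay between 0.00143 (Amica1) and 0.0311 (Cd160). The Klrd1 call was lost without IEL TR library 2 (limma adjusted p = 0.104) or library 3 (0.0856). In LP DP against LP TR, Amica1 was higher by 7.13 (limma adjusted p = 7.44e-10), Crtam by 6.40 (1.87e-07), Klrd1 by 5.76 (0.000613), Cd7 by 5.11 (2.68e-07) and Cd160 by 4.63 (1.41e-08). So 5 of 9 genes were called higher at each site, where 6.55% of all genes were called in IEL (3.3% higher) and 13.8% in LP (5.58% higher). Cd160 in IEL was at 5.08 without IEL TR library 1, and Klrd1 in LP at 5.10 without LP DP library 3 and 6.78 without LP TR library 3. The comparisons with SP and with DP share their TR libraries.

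Markers of other cell types moved with the Foxp3+ phenotype too. The summed level of 13 NK and ILC1 markers was 8.4 to 52.25 in IEL TR and 16.17 to 67.07 in LP TR, against 85.09 to 202 over the SP and DP libraries. Klrb1f, which is on that list, made up much of the sum, 8 of the 13 markers stayed below 10 in every library, Klra3 and Klra8 were at 0 in all, and the NK receptor gene Ncr1 was at 0 in all but IEL DP library 1 (1.07). The 12 γδ T cell genes in the table summed to 265.8 to 453 in IEL TR and 245.5 to 348.2 in LP TR, against 772.1 to 2054 in the SP and DP libraries. Of these, Tcrg-C4 was at 159.3 to 1735 in SP and DP and at 1.05 to 8.70 in TR, while the γδ lineage factor Sox13 was at 0 in 17 libraries and at 1.05 in IEL TR library 1, and Trdv1 was at 0 in all. B and plasma cell genes ran the other way, at 627.4 to 1776 in TR and 44.51 to 104.3 elsewhere, with Ighm in the lead. The part of other cells in the level of the 9 genes was not tested.

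Between DP and SP cells the differences were smaller. In LP, Crtam rose 6.67-fold on the fitted scale in DP against SP (log2 change 2.74 ± 0.47, limma adjusted p = 0.0124). It was the 1 called gene of the 9, where 0.789% of all genes tested were called (0.22% higher). The call was lost with only these groups (0.164), in edgeR's quasi-likelihood test (0.0550), without LP SP library 2 (0.0533, log2 change 2.14) and without LP DP library 3 (0.0610). Cd7, Amica1 and Cd160 had all DP libraries above all SP libraries, as 6.33% of all genes did, with log2 changes of 1.58 ± 0.39 (limma adjusted p = 0.0908), 1.21 ± 0.30 (0.094) and 0.83 ± 0.27 (0.241). Amica1 passed with a pseudocount of 5 (0.0476), with only these groups (0.033) and in DESeq2 (0.0018), and Cd7 in DESeq2 (0.0242). Cd160 passed without IEL TR library 1, which is not part of the comparison but shares its variance estimate (0.0168). Klrd1 was at 1.70 ± 0.97 (0.65) with overlapping libraries. The NK and ILC1 markers summed to 91.74 to 170.8 in LP DP and to 85.09 to 180.4 in LP SP, and the γδ T cell genes to 805.2 to 933.9 and 772.1 to 991.9.

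In IEL, none of the 9 genes was called between DP and SP in limma, where 0.291% of all genes were called and 1151 of the 15472 had an unadjusted p under 0.05. The largest log2 change among the abundant genes was that of Cd7 (0.85 ± 0.37, limma adjusted p = 0.639). It was the 1 gene of the 9 with an unadjusted p under 0.05, and edgeR and DESeq2 called 0 of 9 as well. The γδ T cell genes summed to 1615 to 2054 in IEL DP against 985.8 to 1170 in IEL SP, and the NK and ILC1 markers to 99.52 to 202 against 94.18 to 174.6; their part in these values was not tested. Crtam (0.36 ± 0.45) and Cd7 had all DP libraries above all SP libraries, while Klre1 had them below; libraries did not overlap for 12.7% of all genes. Amica1 and Cd160 overlapped, with log2 changes of -0.02 ± 0.29 and 0.14 ± 0.25. The difference between the sites in the DP effect was tested directly and passed for none of the 9, and 0% of all genes passed in limma (969 genes had an unadjusted p under 0.05). For Crtam it was -2.38 ± 0.65 (limma adjusted p = 0.603) and for Amica1 -1.23 ± 0.42 (0.683), the 2 genes of the 9 with an unadjusted p under 0.05, and edgeR and DESeq2 called 0 of 9.

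Between the sites, the called differences of the set were all in SP cells. Cd160, Crtam, Cd7 and Amica1 were higher in IEL SP than in LP SP, 4 of 9 genes, where 9.29% of all genes were called (3.79% higher). Crtam was 6.02-fold higher on the fitted scale (log2 2.59 ± 0.47, limma adjusted p = 0.0024) and Amica1 2.98-fold (1.57 ± 0.30, 0.00356). Without LP SP library 2, Crtam was at 1.99 (0.0116). Cd160 was higher by 1.12 ± 0.26 (limma adjusted p = 0.0145) and Cd7 by 1.38 ± 0.39 (0.0377), and both calls were lost in edgeR (0.203 and 0.0798), with a single pooled variance (0.196 and 0.0948) and without the filter on low values (0.0634 and 0.0791). DESeq2 did not call Cd160 (0.103). Without LP SP library 3 the values were 0.97 (0.0995) for Cd160 and 1.12 (0.197) for Cd7. The Cd7 call was also lost without IEL SP library 1 (0.131), IEL SP library 2 (0.102), LP SP library 1 (0.0942) or IEL TR library 1 (0.0522). For each of these 4 genes, and for 14.1% of all genes, every IEL SP library was above every LP SP library. Myeloid markers summed to 79.75 to 125.2 in IEL SP and to 153.5 to 460.5 in LP SP, and epithelial markers (Cdh1 among them) to 468.5 to 786.1 and 212 to 518.1; their part in these differences was not tested.

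In DP cells none of the 9 genes was called between the sites in limma, edgeR or DESeq2, or had an unadjusted p under 0.05 in limma, where 11.3% of all genes were called. Cd160 and Cd7 had all IEL DP libraries above all LP DP libraries, as 15.4% of all genes did, with log2 differences of 0.42 ± 0.25 (limma adjusted p = 0.314) and 0.65 ± 0.37 (0.295), and Cd160 passed with only these groups (0.0193). Crtam, Amica1 and Klrd1 differed by 0.21 ± 0.45, 0.34 ± 0.29 and 0.05 ± 0.92. In TR cells none was called either in limma or edgeR, where 1.81% of all genes were called in limma, and Cd7 alone had an unadjusted p under 0.05. Cd160 differed by 0.79 (limma adjusted p = 0.408) and Cd7 by 1.54 (0.238), and both passed in DESeq2 (0.0431 and 0.00816). The Cd160 difference rested on IEL TR library 1, without which it was -0.026 (limma adjusted p = 0.982), and Cd7 ranged from 1.05 to 2.01 with single libraries left out. The difference between the sites in the TR effect passed for none of the 9 in limma or edgeR, where 0.123% of all genes were called. It was -2.42 ± 0.54 for Amica1 (limma adjusted p = 0.114, and 0.000136 in DESeq2) and -2.98 ± 0.84 for Crtam (0.273), the 2 genes of the 9 with an unadjusted p under 0.05.

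**Figure D3:**
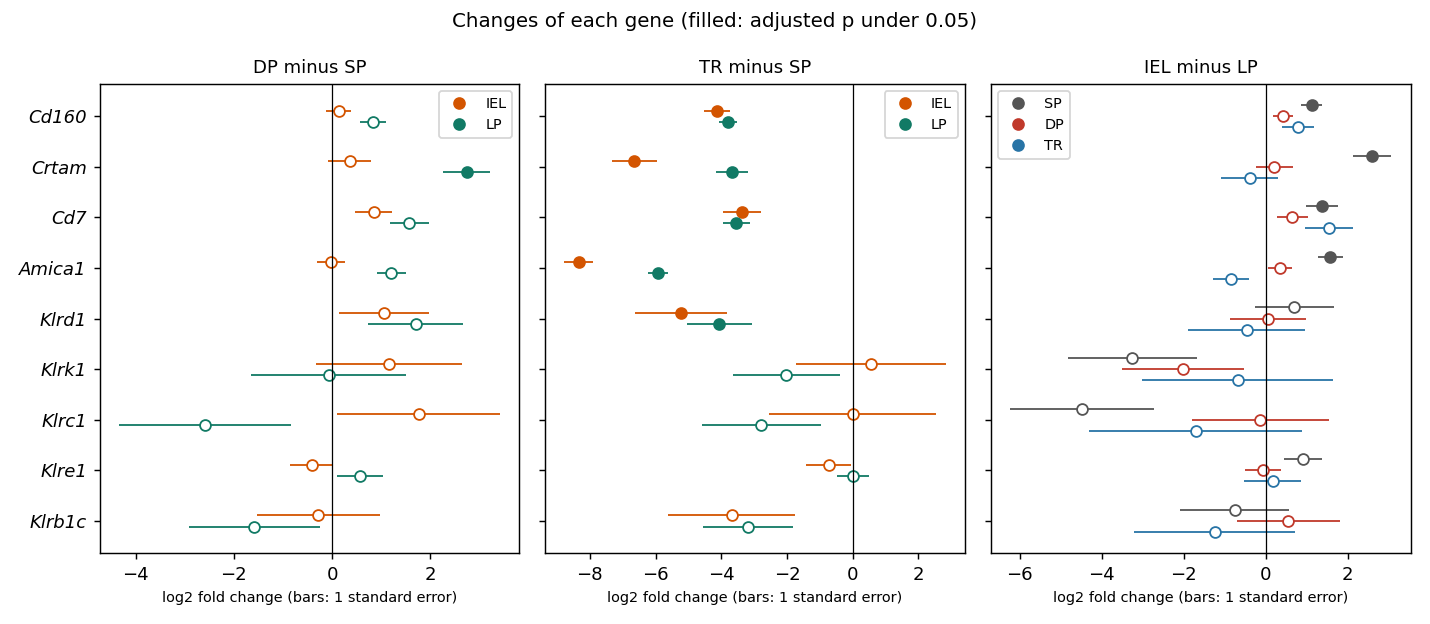
Log2 fold change of the 9 genes in the limma fit for DP minus SP and TR minus SP at each site and for IEL minus LP in each phenotype, with bars of 1 standard error. Filled points have an adjusted p under 0.05. Cd160, Crtam, Cd7, Amica1 and Klrd1 are filled and below 0 for TR at both sites, Crtam alone is filled for DP minus SP (LP, 2.74), and 4 genes are filled for IEL minus LP in SP cells.

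The other genes of the receptor systems were described from lists of the family, its adaptors, its ligands and related molecules. Of 28 other killer lectin-like genes, 23 were in the table and 3 passed the filter: Klrg1, Klrb1f and Klrc2. Klrg1, an inhibitory receptor that binds cadherins, was at 3176, 1432 and 1824 normalised counts in IEL TR and at 3552, 3083 and 3710 in LP TR. The other 12 libraries held 2.79 to 46.06. Klrg1 thus ran opposite to the 5 genes that were low in TR, with log2 changes of 5.96 ± 1.04 in IEL (limma adjusted p = 0.00316, and 0.00327 with only these groups) and 7.16 ± 0.74 in LP (1.62e-05). Klrb1f, a receptor of the Klrb1 family, fell in IEL TR (log2 change -4.47, limma adjusted p = 0.0348) and in LP TR (-3.75, 0.00817), from 50.75 to 112.9 over the SP libraries to 0 to 34.37 over the TR libraries. Both Klrb1f calls were lost with only the groups compared (0.161 in IEL and 0.0593 in LP) and in edgeR (0.0932 and 0.151), and DESeq2 lost that in LP (0.0528). The Ly49 genes of the Klra series reached at most 12.41 in any library.

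Of 18 adaptors and signalling partners, 15 were tested. Hcst, the adaptor of Klrk1, was at 1055 to 1651 normalised counts over the SP libraries, at 1184 to 1402 over the DP libraries and at 543.7 to 1001 over the TR libraries. It fell in TR, with log2 changes of -0.98 in IEL (limma adjusted p = 0.024, and 0.168 with only these groups) and -0.81 in LP (0.00626). Hcst was thus present in all libraries, also in those with no read of Klrk1. Sh2d1a, the adaptor SAP of SLAM-family receptors, rose in TR by 2.13 (0.00196, and 0.00327 with only these groups) and 1.30 (0.00323). In LP, Fyn (-0.61, 0.00301) and Ptpn6 (-1.16, 0.00543, and 0.0531 with only these groups) fell as well. No gene of this list passed between DP and SP at either site, and Sh2d2a was lower in IEL than in LP, at -1.61 in SP (0.000142) and -0.92 in DP (0.00794, and 0.0927 with only these groups). Tyrobp, the other main adaptor of activating NK receptors, was at 0 to 23.53.

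Of 21 genes for ligands of these receptors, 17 were in the table and 9 were tested. Ulbp1, a Klrk1 ligand, was at 36.05, 72.40 and 65.33 normalised counts in IEL SP and at 1.05, 2.06 and 8.71 in IEL TR, a log2 change of -3.84 ± 0.78 (limma adjusted p = 0.00912, and 0.0480 with only these groups). This call was lost without IEL TR library 2 (0.104). In LP TR it was at 35.70, 31.09 and 7.30, overlapping with LP SP (29.29, 51.50 and 48.68). H60b, another Klrk1 ligand, was at 9.30 to 27.32 in all IEL libraries and at 46.26 to 68.39 in all LP libraries. The log2 difference of IEL from LP was -1.61 in SP (limma adjusted p = 0.00421) and -1.78 in DP (0.00123). Clec2i, which encodes a lectin-like ligand of the Klrb1 family, was at 533.7, 451.0 and 558.6 in IEL TR and at 189.3, 94.51 and 169.2 in LP TR, a difference of 1.82 ± 0.41 (0.0358, and 0.0805 with only these groups).

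Among 16 tested NK-type receptors outside the lectin family, 4 fell in TR at both sites (Cd226, Cd96, Cd244 and Slamf7) and 2 rose at both (Tigit and Lilrb4), with Havcr2 rising in LP. Of all genes tested, 2.58% were called lower and 2.37% higher in IEL TR against SP. In LP TR against SP these shares were 3.63% and 4.56%. In IEL the calls of Cd226 and Cd96 were lost with only the groups compared (0.108 and 0.111), and those of Tigit (0.0419) and Lilrb4 (0.0101) were kept. The Tigit call was lost without IEL TR library 2 or library 3 (limma adjusted p up to 0.0719). In LP the Cd226 call was lost in edgeR (0.135) and DESeq2 (0.0698) and that of Lilrb4 in edgeR (0.0533), and single libraries left out took them up to 0.126 and 0.0847. Lilrb4, an inhibitory immunoglobulin-like receptor, was the only gene of this list whose TR effect passed as different between the sites (1.84, limma adjusted p = 0.0301, and 0.0490 with only these groups). Its level went from 207.0 to 260.4 normalised counts over IEL SP to 1004 to 1852 over IEL TR, and from 1261 to 1423 over LP SP to 2002 to 2553 over LP TR. Leaving out single libraries took the adjusted p of that difference up to 0.139 (without IEL TR library 2). Cd244, a SLAM-family receptor of NK and cytotoxic T cells, was at 776.1, 928.4 and 879.0 normalised counts in IEL SP, at 1832, 1520 and 1899 in IEL DP and at 6.30, 1.37 and 34.85 in IEL TR. In LP it was at 233.2, 88.82 and 147.2 in SP, at 902.0, 720.3 and 864.5 in DP and at 2.16, 12.44 and 4.87 in TR. The groups of SP, DP and TR did not overlap at either site, and LP SP again stood below IEL SP. The log2 changes were -6.66 ± 0.74 in IEL TR (limma adjusted p = 5.41e-05, and 0.0271 with only these groups), -4.54 ± 0.52 in LP TR (5.1e-05) and 2.50 ± 0.51 in LP DP against SP (0.0325, 0.0751 in edgeR, and up to 0.159 with single libraries left out). Slamf7 fell in IEL TR (-4.18, 0.000447, and 0.0419 with only these groups) and in LP TR (-2.87, 0.000306). Il18rap and Lilrb4 fell in DP against SP at both sites, Il18rap by log2 changes of -1.62 in IEL (0.00999) and -1.49 in LP (0.0186), and Lilrb4 of -0.98 (0.0102) and -1.24 (0.00193). With only the groups compared, the calls in IEL were lost (0.290 for Il18rap and 0.380 for Lilrb4), as in edgeR (0.131 and 0.166), and the Il18rap call in LP was lost in edgeR (0.0800) and with single libraries left out (up to 0.0804).

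**Figure D4:**
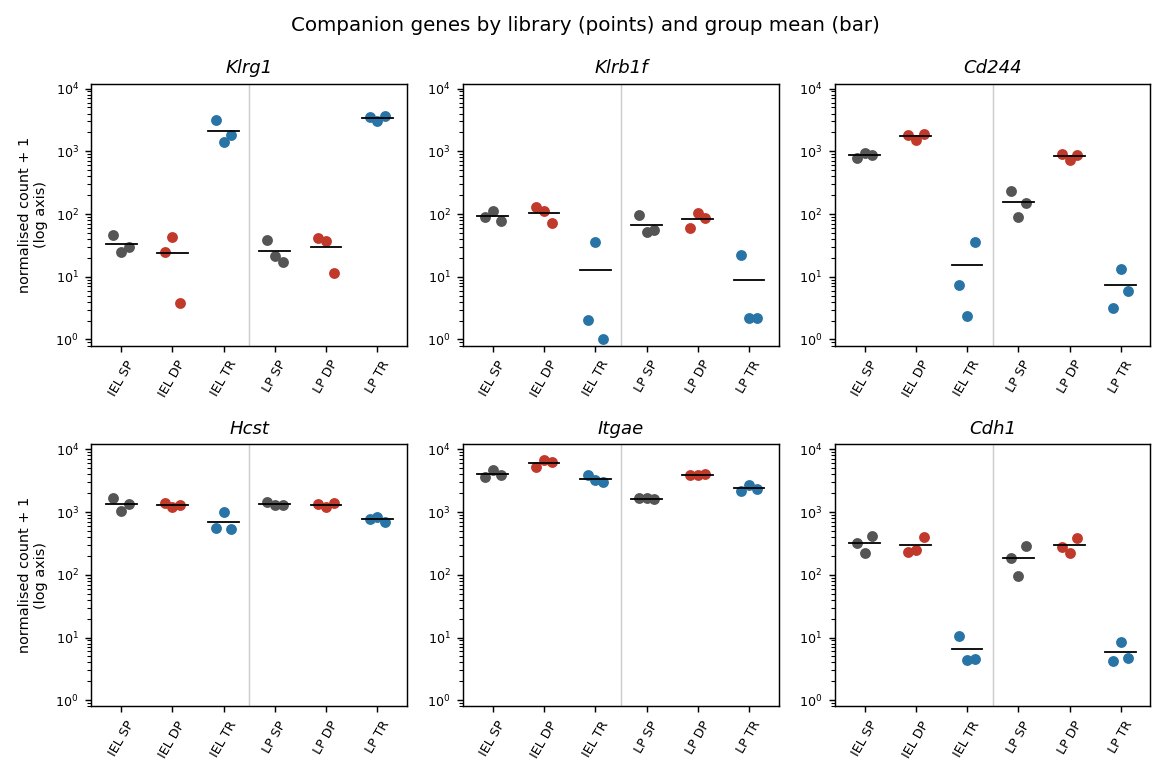
Normalised count + 1 of 6 related genes in each of the 18 libraries, on a log axis. Points are libraries and bars are group means, grey for SP, red for DP and blue for TR. Klrg1 is at 1432 or more in every TR library and at 46.06 or less elsewhere, Cd244, Klrb1f and Cdh1 are lowest in TR, Hcst is within 543.7 to 1651 throughout, and Itgae rises from SP to DP at both sites.

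Of 19 tested genes of adhesion to the epithelium, Itgae was the only one that rose in DP at both sites. Of all genes tested, 0.291% were called between DP and SP in IEL and 0.789% in LP. Itgae is the αE chain of the integrin that binds E-cadherin. It was at 3602, 4698 and 3935 normalised counts in IEL SP and at 5167, 6776 and 6267 in IEL DP, a log2 change of 0.57 ± 0.11 (limma adjusted p = 0.044). That IEL call was lost with only these groups (0.391) and in edgeR (0.231). In LP it was at 1654, 1650 and 1604 in SP and at 3839, 3902 and 4048 in DP, a change of 1.26 ± 0.12 (4.58e-05). The DP libraries stood above the SP libraries at both sites, as for Cd7 and Crtam among the 9. Cd2 fell in DP in LP alone (log2 change -0.89, limma adjusted p = 0.0133, and 0.133 with only these groups). In IEL SP against LP SP, Itgae, Itgb7 and Cd48 were called higher and Cd2 lower (9.29% of all genes called). In IEL DP against LP DP, Itgae, Itgb7, Itgb2, Cd48 and Ccr9 were called higher (11.3% of all genes called). Over all lists, 12 of 17 and 15 of 18 of these site calls were kept with only the groups compared. Itga1, the α1 integrin chain that binds collagen, and Cdh1 (E-cadherin) fell in TR at both sites, with log2 changes of -7.52 in IEL (limma adjusted p = 2.71e-05, and 0.0093 with only these groups) and -5.65 in LP (8.31e-06) for Itga1 and of -5.69 (2.89e-05, and 0.00568) and -4.95 (2.11e-06) for Cdh1. Cd2 and Itga4 rose in TR at both sites, Cd2 by 2.09 (3.99e-05, and 0.00518 with only these groups) and 1.74 (4.85e-06). The Itga4 call in IEL was lost with only these groups (0.0525). Between TR and SP, 4.95% of all genes tested were called in IEL and 8.2% in LP. In LP TR, Itgae, Itgb7, Gpr15 and Ccr9 also rose and Itgal fell, of which Itgb7 and Ccr9 were lost with only these groups (0.132 and 0.0681) and in edgeR (0.122 and 0.110), and Itgae without LP TR library 2 (0.0620) or LP SP library 3.

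Of 18 tested transcription factors of innate-like T cells, Runx3 and Tbx21 fell and Ikzf2 and Gata3 rose in TR at both sites. These calls stand beside 4.95% of all genes tested that were called in IEL TR against SP and 8.2% in LP. Runx3 was at 1247 to 1484 normalised counts in IEL SP, 307.6 to 620.8 in IEL TR, 724.7 to 1012 in LP SP and 395.4 to 578.7 in LP TR. Its log2 change was -1.61 ± 0.27 in IEL (limma adjusted p = 0.0023, and 0.0424 with only these groups) and -0.92 ± 0.19 in LP (0.00613). Tbx21, which encodes T-bet, fell as well, with -2.01 (0.0286, and 0.179 with only these groups) and -2.69 (0.000157). The IEL calls of Ikzf2 (0.00128) and Gata3 (0.0133) were kept with only these groups. Id2, an inhibitor of E proteins, was lower in IEL TR (5086 to 7024 normalised counts) than in IEL SP (11177 to 12522) and higher in LP TR (10748 to 17862) than in LP SP (6424 to 10289). Its log2 changes were -1.04 (limma adjusted p = 0.0201, and 0.0242 with only these groups) and 0.70 (0.0189, and 0.139 with only these groups). The IEL calls of Id2 and Gata3 were lost without IEL TR library 2 or library 3 (limma adjusted p up to 0.177 and 0.108). Tcf7, which encodes TCF-1, was at 831.9, 999.4 and 911.0 in LP SP and at 64.90, 70.88 and 48.70 in LP TR, a log2 change of -3.89 (2.98e-07). In IEL it was at 511.1 to 694.0 in SP and at 142.9, 200.7 and 613.4 in TR, and was not called. The TR effect passed as different between the sites for Id2 (-1.74) and Tcf7 (2.68), each at an adjusted p of 0.0337. Both were lost with only the groups compared (0.0677 and 0.180) and each in 8 of the fits that left out 1 library, and edgeR kept both (0.0145 and 0.0334). In LP TR, Bcl11b was lower by a log2 change of -0.47 (0.0277, and 0.139 with only these groups), and Tox rose by 2.16 (0.000984, and 0.0243 with only these groups). Between DP and SP, Runx3 was not called at either site, and Zbtb7b, which encodes ThPOK, was the only gene of the list called in IEL, at 69.10, 48.98 and 83.14 in SP and 1.07, 0.83 and 1.86 in DP. Runx1 was the only one called in LP, at 558.9, 651.6 and 515.8 in SP and at 292.8, 343.2 and 343.7 in DP (log2 change -0.81, limma adjusted p = 0.0386). The Runx1 call was lost with only these groups (0.116), in edgeR (0.307), in DESeq2 (0.0794) and whenever 1 library of the groups compared was left out. Of the called genes of all lists, 14 of 20 kept their call with only the groups compared in IEL TR against SP, 20 of 30 in IEL DP against TR, 0 of 5 in IEL TR against LP TR and 1 of 3 for the TR effect between sites.

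The patterns most like the average of the 9 genes over the 18 libraries were those of Mical2 (Pearson r = 0.960), B4galnt2 (0.950), Spats2 (0.947), Kcnk5 (0.933), Fhl2, Ccl5 and Qpct (each 0.928), Cdh1 (0.925), Pde7a (0.921) and Fam71b (0.920). Ccl5 was the most abundant of them, at a mean of 21960 normalised counts in IEL SP, 39660 in IEL DP and 170.5 in IEL TR. The most opposed were Ifi27l2a (-0.948), Tbrg1 (-0.947), Eva1b (-0.943), Glrx (-0.941) and Prelid1 (-0.939). For single members, Nkg7 was closest to Cd160 (0.980), Qpct to Amica1 (0.989), Ccl5 to Crtam (0.972), Plcg2 to Cd7 (0.971) and Spats2 to Klrd1 (0.953). For Klrk1, Klrc1, Klre1 and Klrb1c the closest genes reached 0.761, 0.702, 0.787 and 0.772. Nkg7 encodes a granule membrane protein of cytotoxic lymphocytes. These values describe 18 libraries that share 6 groups. Among Cd160, Crtam, Cd7, Amica1 and Klrd1 themselves, r was 0.847 to 0.950 over the 18 libraries, and -0.465 to 0.285 after removal of the group means.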

How the data were processed

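RNA of sorted cells was isolated with SPRI beads, reverse transcribed and made into Nextera XT libraries that were pooled with 6 index 1 and 3 index 2 adapters, per the labels. Per the submitters' processing notes, the tools were TopHat and HTSeq and the build mm10, with no versions given. The deposited table holds normalised counts (a signal, not raw reads) with 2 decimals, made by the authors. In every library 100% of values were whole multiples of the value of 1 read (within 0.1 of a step), so whole reads were recovered for the count tests; 1125 of the 38392 genes had no symbol.

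Tests used limma 3.58.1 (R 4.3.3) on log2(normalised count + 1) over all 18 libraries, with 1 coefficient per group, variance weights per group, trended robust empirical Bayes and Benjamini-Hochberg adjustment over 15472 genes, with a threshold of 0.05. Fold changes on this scale understate changes of low genes. The tests of edgeR 4.0.16 (quasi-likelihood, TMM) and DESeq2 1.42.0 on recovered reads were alternatives, as were another normalisation, pseudocount, filter, variance model or set of libraries. The limma scripts were tested on simulated data. There the weighted fit made more false calls in comparisons that hold IEL TR, so its p-values in these are too small, and the fit of only the groups compared made no false call in them but found no true difference. For the lists, that fit, edgeR, DESeq2 and each library left out were added after the data were seen. All 9 genes were named, and from each list, per comparison, the called genes among the 3 with the smallest p were to be named. Clec2g, H2-T23, Ets1, Nfil3 and Ahr met that rule and are not described above. Clec2g was called lower in IEL DP than in IEL TR (limma adjusted p = 0.0231, and 0.126 with only these groups), and H2-T23 in LP DP than in LP TR. Ets1 and Nfil3 were called lower in IEL SP than in LP SP, and Ahr and Nfil3 in IEL DP than in LP DP. Nfil3 was also called lower in IEL TR than in LP TR. Some other called genes of a list were named after their values were seen, and not every called gene is named. Likeness is Pearson's r over the 18 libraries among genes whose group mean reached 50 somewhere. The members and lists were chosen with earlier results of these data known.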

Additional observations from a re-analysis of the deposited data

How the results depend on the processing

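Of 99 results (9 genes in 11 contrasts), 25 were called; 20 of these kept their call in all 11 settings that used every library, 19 also with each library left out, 9 uncalled results were called in at least 1 setting, and no called result changed sign. For LP DP against LP SP, the count of called genes was 1 in limma, 2 with a pseudocount of 5, 0 in edgeR and 3 in DESeq2, and 0 to 2 with single libraries left out. For IEL SP against LP SP it was 4, and 2 without the filter, with a pooled variance and in edgeR, and 2 to 4 with single libraries left out. There, DESeq2 lost Cd160 (adjusted p = 0.103). With only the groups compared, Klrc1 was called as well and was lower in IEL (limma adjusted p = 0.02). IEL DP against LP DP went from 0 to 1 with only the groups compared. In DESeq2, IEL TR against LP TR went from 0 to 2 and the difference of the TR effect between sites from 0 to 1. Klrb1c passed in IEL TR against SP in edgeR (adjusted p = 0.0294) and DESeq2 (0.0019), and in IEL DP against TR in DESeq2 (0.0159). The Klrd1 calls were lost with a pseudocount of 5 (0.0935 in IEL TR against SP, 0.0677 in LP), and with quantile normalisation in IEL (0.0624) or edgeR in LP (0.0731). The cause of these changes was not tested.

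With the replicate number as a replicate block, the counts of called genes were unchanged in every comparison (5 in each comparison of TR with SP or DP, 4 in IEL SP against LP SP, 1 in LP DP against LP SP and 0 in the rest). The labels state no shared animal or day for a number. Over 45 pairs of same-numbered libraries, deviations from group means correlated at 0.001 to 0.089, all above 0. By mean correlation, 18 of 18 libraries were closest to their own number. Libraries of the same number thus shared a weak pattern across groups, and the main fit treats them as unpaired. What they share was not tested.

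Counts over all genes moved by more than 1.5 times in some settings with every library: 8 to 61 (45 in limma) in IEL DP against SP, 45 to 194 (122) in LP DP against SP, 450 to 2375 (766) in IEL TR against SP, 807 to 1532 (1268) in LP TR against SP, 640 to 2732 (1013) in IEL DP against TR, 1267 to 2229 (2131) in LP DP against TR, 832 to 1672 (1438), 847 to 1916 (1752) and 93 to 1667 (280) between sites in SP, DP and TR, and 8 to 223 (19) for the TR effect between sites. With single libraries left out they were 18 (without IEL SP library 1) to 43, 46 (LP SP library 3) to 98, 299 (IEL TR library 2) to 887, 770 (LP SP library 3) to 1251, 444 (IEL TR library 2) to 1172, 1516 to 2111, 803 (LP SP library 3) to 1422, 1005 (IEL DP library 3) to 1694, 111 (IEL TR library 2) to 363 and 5 (IEL SP library 3) to 34, in the same order. Equal totals moved the median of all genes by -0.143 in IEL TR against SP (212 higher and 433 lower, against 367 and 399) and by 0.181 in IEL DP against TR (589 and 301, against 511 and 502), and the split in IEL DP against LP DP to 944 and 683 (against 750 and 1002). Low counts of Klrk1, Klrc1, Klre1 and Klrb1c limit what these libraries can show of them.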
